A study of Homo sapiens with 42 samples.

Results

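The ERM-tethered enzyme left 15056 A-to-G sites in the poly(A) RNA of HEK293T cells that the table of the cytoplasmic enzyme does not hold, out of 371699 ERM sites in all. A site was a chromosome, position and strand. Members were chosen by the authors' calls, which rest on the measured rates and adjusted p-values: the ERM table listed them and the NES table did not. The remaining 356643 ERM sites were listed for both constructs and are called shared sites below. TadA-8e is an adenosine deaminase that turns adenosine into inosine, which sequencing reads as G, so the rate of a site is the percentage of its reads that carry the change. Wild-type HEK293T cells, a line from human embryonic kidney that carries the SV40 T-antigen, were transfected with TadA-8e plasmids or GFP control plasmids, and GFP-positive cells were sorted. The signal peptide was ERM (endoplasmic reticulum membrane), NES (nuclear export, cytoplasm) or NLS (nuclear localisation), and control cells, labelled TadA-8e depletion, lacked the enzyme. K562, a human erythroleukaemia line, received the NES, NLS and control plasmids by electroporation. Each bulk group held 2 libraries, and 10 single HEK293T cells with the NES enzyme were also sequenced. Whether the 2 libraries of a group are separate cultures is not in the labels, and a p-value here reflects the spread between those libraries, which may be technical. How much of each enzyme the cells held was not measured in these tables.

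Ribosomes that make secreted and membrane proteins dock on the outer face of the endoplasmic reticulum (ER), so their mRNAs lie next to a membrane-bound enzyme. That face is part of the cytoplasm, and the ER is continuous with the envelope of the nucleus. XIST, the long noncoding RNA that coats the inactive X chromosome, stays in the nucleus, and the RNAs that mitochondria encode stay inside those organelles.

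Few members lie where a reference sequence was at hand: 84 in the 300-base RefSeq promoter windows (GRCh38.p14, from 250 bases before a gene's start to 50 after it) and 2 in miRNA hairpins. All 3077 matches of an ERM site to such a window had an A at the site on the site's strand. The windows below are read 5′ to 3′ from these tables and show the 6 members of highest ERM rate with 10 bases on both sides, and 1 hairpin site. The capital marks the changed A. The ARID1B and TPT1 windows were read from the promoter of a gene on the opposite strand.
SLC25A13, mitochondrial aspartate and glutamate carrier, chr7:96322071-96322091, minus strand: ccaggaacgcAcgctgcctgg
ARID1B, chromatin remodelling subunit, chr6:156778613-156778633, plus strand: ggagtttaatAattactatgg
ATP5PF, ATP synthase subunit, chr21:25735267-25735287, minus strand: gctttgttttAcacagtctca
SVIP, ER-associated degradation inhibitor, chr11:22829791-22829811, minus strand: ccgcgcagttAgcgccgcctg
TPT1, abundant translationally controlled protein, chr13:45341107-45341127, minus strand: tccgagtttcAggctcgtgct
THTPA, thiamine triphosphatase, chr14:23556183-23556203, plus strand: caacgggcgtAatatggccgc
DGCR8, within the hairpin of MIR3618, chr22:20085781-20085801, plus strand: cagugguucuAaaagcugucu
The base before the A was T at 50.7% of the 73 members with a full 21-base window (95% exact binomial interval 38.7 to 62.6) and at 50.2% of 2243 shared sites (48.1 to 52.3). The letters TAC, with the A in the middle, stood at 19.2% of members (10.9 to 30.1) and 18.7% of shared sites. Among all A of the promoter windows, T preceded 15.1% and TAC held 3.00%, and 90.2% of the windows held TAC on either strand. At the letters next to the A, members and shared sites of these windows therefore differed by less than the interval of the members.

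The windows show members of very different call strength. The SLC25A13 site had ERM rates of 53.3% and 33.3% in the 2 libraries, with a larger adjusted p of 0.0155, and the DGCR8 site had 27.3% and 36.4% (0.0391). Neither was listed with NLS. The SLC25A13 site was listed with NES in K562 (60.3% and 68.8%) and in 2 single NES cells, the DGCR8 site in 1 single NES cell and not in the K562 NES table. TPT1 had 27.3% and 29.8% with an adjusted p of 1.65e-172, and was listed with NLS (16.1% and 18.1%), in rRNA-depleted RNA with NES (42.7% and 56.8%), in K562 with NES (61.3% and 59.8%) and in all 10 single NES cells.

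The tables list called sites only, with a rate and an adjusted p per library and no read counts, so the depth is unknown and fewer reads cannot be told apart from a lower rate. The HEK293T poly(A) tables held 907935 sites with NES and 574863 with NLS. Of 6 marker genes of HEK293T, 3 carried sites in the ERM, NES and NLS tables and 0 in the K562 tables, while 13 of 13 K562 markers carried sites in both K562 tables and none in those of HEK293T. Rates in the control libraries at these positions were not analysed here.

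Members made up 4.05% of ERM sites, and the share depended on how strong the ERM call was. These values follow from the rule and are a description. Where the larger of the 2 ERM adjusted p-values had a −log10 under 2, 11% of 96232 sites were members, against 4.34% for a −log10 between 2 and 3, 0.159% between 5 and 10 and 0.0451% (8 of 17737) between 20 and 50. The share was higher again at the strong end, with 6.12% for a −log10 between 100 and 150 and 9.88% (57 of 577; exact 95% interval 7.57 to 12.6) between 150 and 200. Among the 574 ERM sites whose adjusted p is listed as 0 in both libraries, none was a member. So the members gathered at 2 ends of the same scale, one at the weak end of the ERM calls and one among the strongest.

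**Figure D1:**
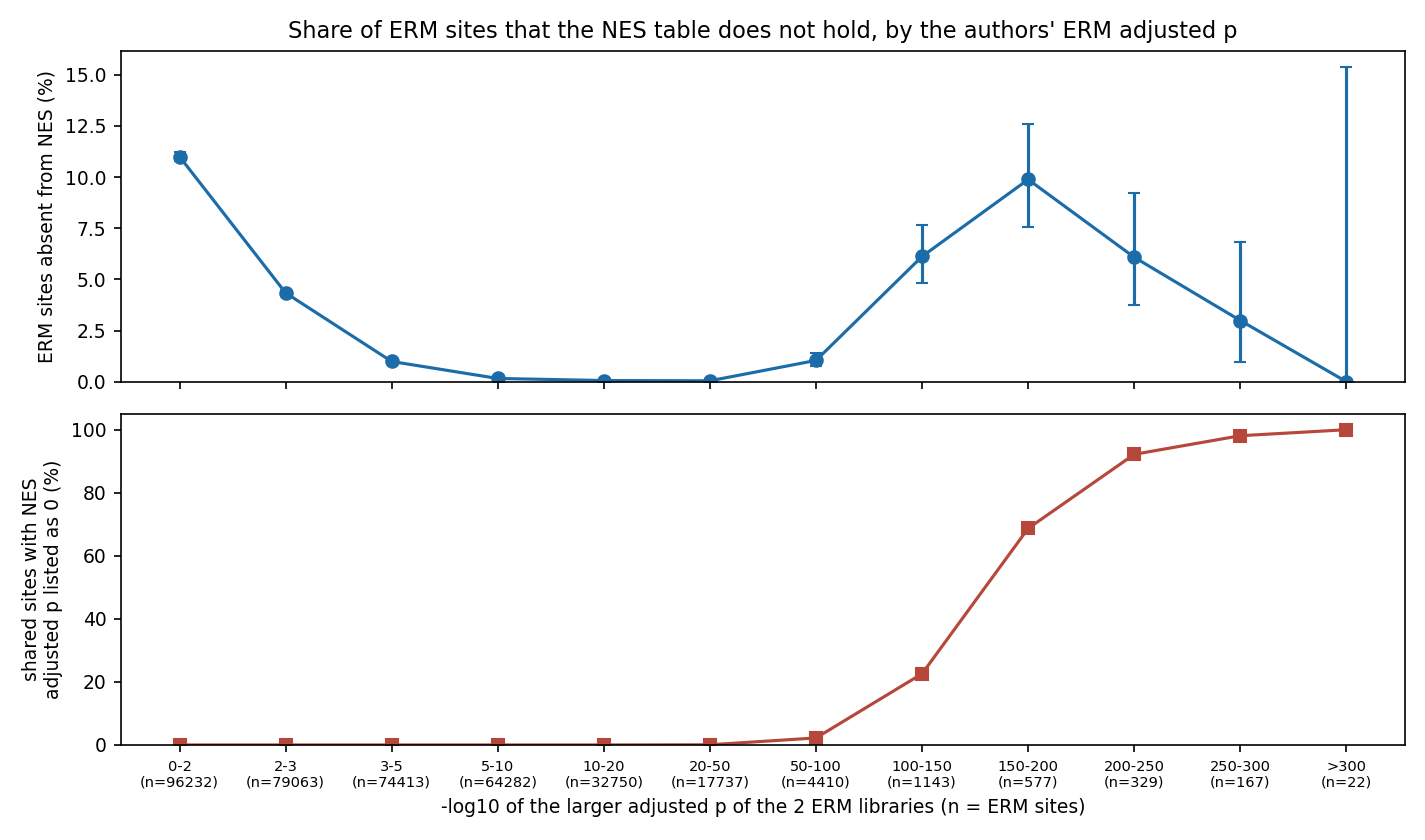
The upper panel plots the percentage of ERM sites absent from the NES table against the authors' ERM adjusted p (−log10 of the larger of the 2 libraries; n under each bin), with exact binomial 95% intervals. The share is 11% at the left, under 0.2% in the middle and 9.88% between 150 and 200; the lower panel shows the percentage of shared sites in the same bin whose NES adjusted p is listed as 0 in both libraries, which is 68.7% in that bin.

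Most members were weak calls. The median of the larger adjusted p was 0.0203 over members and 0.000474 over shared sites, and 70.2% of members against 24.0% of shared sites had 0.01 or more. At the edge of the ERM call, 2273 members and 12728 shared sites had a larger ERM adjusted p of 0.04 or more, and 1636 shared sites stood just inside the NES table with a larger NES adjusted p of 0.04 or more. The rates themselves were not low. The mean ERM rate of a member was 10.2% and 9.98% in the 2 libraries (10.1% ± 0.176, SD, n = 2), against 9.04% and 8.85% at shared sites, and single members ranged from 0.0480% to 80.2%. A member lay a median of 9 bases from the nearest site that the NES table does list on that strand, against 3 bases for a shared site, and 12.5% of members (1.79% of shared sites) had none within 100 bases. Within the RefSeq interval of their gene, 41.2% of members and 35.4% of shared sites lay in the last 2000 bases.

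The NLS table held 4258 members, or 28.3% (27.6 to 29.0), against 76.3% of shared sites. The NLS libraries did not enter the rule. Because members were mostly weak ERM calls, the same shares were also taken among weak calls alone. At a larger ERM adjusted p of 0.001 or more, NLS listed 26.7% of 13993 members and 60.9% of 161302 shared sites. Call strength was not matched within this cut. The median of the authors' larger adjusted p was 0.0221 over these members and 0.0111 over these shared sites. Of the 1063 members with an adjusted p under 0.001 in both ERM libraries, NLS listed 48.9%. They include 206 members with an adjusted p under 1e-20, of which NLS listed 97.6%. The share of shared sites at this cut was not taken. In other libraries too, members were listed less often than shared sites. With NES in K562, 52.4% of members were listed and 89.5% of shared sites, with NLS in K562 26.0% and 65.4%, and in rRNA-depleted HEK293T RNA 14.3% and 53.1% with NES. So 7890 of the 15056 positions that NES lacked in HEK293T poly(A) RNA were called with NES in K562 poly(A) RNA, and 7653 (50.8%) were listed in at least 1 of the 10 single HEK293T cells that carried the NES enzyme, against 82.2% of shared sites.

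**Figure D2:**
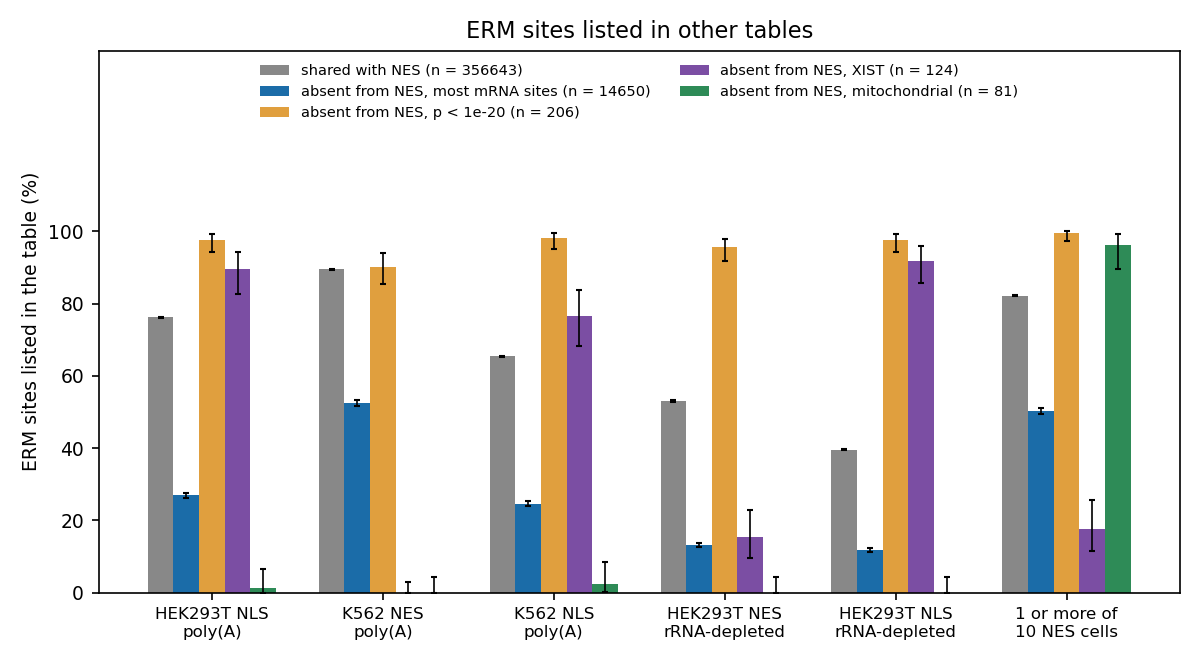
Bars give the percentage of ERM sites that each other table lists (exact binomial 95% intervals, counting error only) for shared sites and for 4 kinds of site absent from the NES table. Sites with adjusted p under 1e-20 are listed in over 90% of cases in every table. XIST sites are listed with NLS (89.5% in HEK293T poly(A) RNA) and in 0 cases with NES in K562. The 14650 members outside XIST, mitochondria and adjusted p under 1e-20 are listed in 26.9% with NLS in HEK293T poly(A) RNA, against 76.3% of shared sites.

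XIST (chrX:73820656-73852714, minus strand, hg38) held more members than any other gene. Of its 141 ERM sites 124 (87.9%) were absent from the NES table. In the same poly(A) RNA 2101 XIST sites were listed with NLS and 44 with NES, of which 43 were also NLS sites. Over the 111 members that NLS also listed, the mean ERM rate was 1.78% and 1.51% in the 2 libraries and the mean NLS rate 15% and 14.2%. The NLS rate was higher at all 111. At the 17 XIST sites that all 3 constructs shared, the means were 1.10% with ERM, 0.879% with NES and 17.2% with NLS. At these 17 the ERM level lay near that of NES and far below that of NLS. They were all called with NES, so they do not stand for the 124 members that NES lacks.

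The position of the XIST members also differed from that of the NES sites. The first 10000 bases of the gene held 45 members and 1 NES site, while the stretch from base 25000 to 30000 held 33 members and 18 NES sites and the bases beyond 30000 held 11 and 15. In between, the bins of 5000 bases from base 10000 to 25000 held 27, 2 and 6 members and 0, 5 and 5 NES sites. Median ERM rates at members were 3.47% in the first 5000 bases and 0.701% between 25000 and 30000. The NLS medians over the same 2 stretches were 7.81% and 2.28%. Neither fall was steady along the gene. Between bases 15000 and 20000 the median was 41.5% over 2 members with ERM and 17.6% over 88 sites with NLS. NLS listed 217 sites in the first 5000 bases, 413 in the next 5000 and 751 between 25000 and 30000. The strongest call, at chrX:73851802 near the start, had 18.4% and 15.2% with ERM and 47.5% and 42.4% with NLS. In rRNA-depleted RNA, whose libraries the rule did not use, the same site had 1.13% and 1.99% with NES and 39.9% and 39.6% with NLS. That difference was -4.01 ± 0.37 (SE) on the log2 scale of limma (adjusted p = 4.87e-06, and 0.0264 at most without 1 library). Another pair of XIST members did not follow this order. At chrX:73832925 ERM gave 38.9% and 53.2%, and rRNA-depleted RNA gave 24.4% and 15.2% with NES and 23.1% and 15.5% with NLS. At chrX:73834953 the ERM rates were 31.9% and 42.0%, the NES rates 32.1% and 48.8% and the NLS rates 27.0% and 32.5% in rRNA-depleted RNA. The NLS table of poly(A) RNA listed neither of these. The test of NES against NLS was not passed at either (adjusted p = 0.976 and 0.436 by limma). In K562 no XIST site was listed with NES (0 of 124 members, which allows a share of up to 2.42%) and 785 with NLS, of which 95 were members at mean rates of 26.3% and 23.9%.

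**Figure D3:**
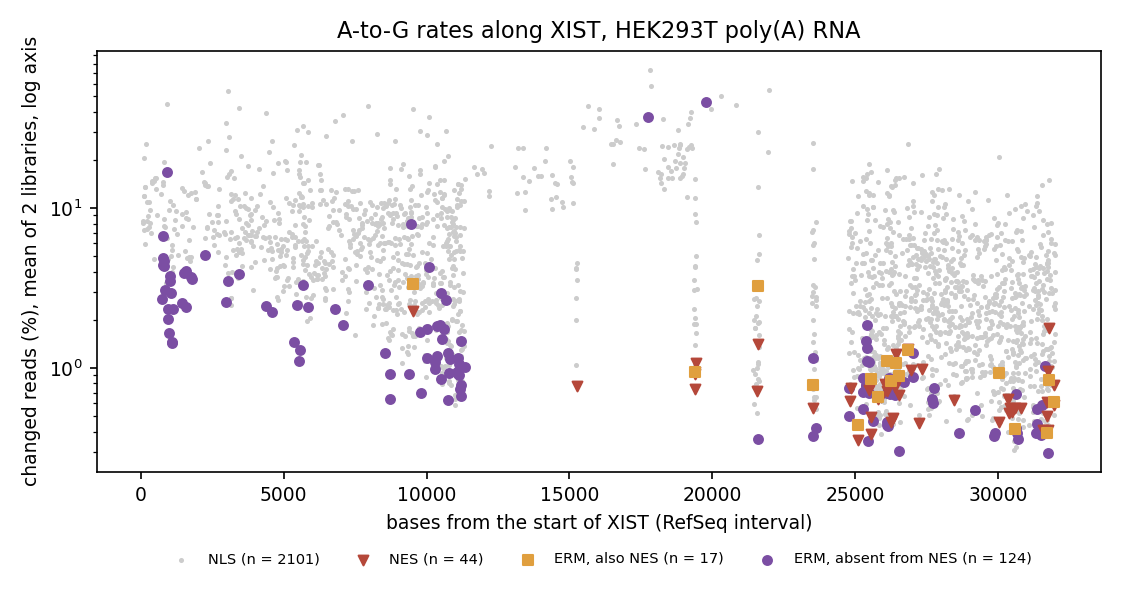
Each point is a called site of XIST in HEK293T poly(A) RNA, at its distance from the gene's start (RefSeq interval) and its mean percentage of changed reads over 2 libraries (log axis). The 124 ERM sites absent from NES lie unevenly along the genomic interval of the gene. The first 10000 bases hold 45 of them, where the NES table has 1 site, and bases 15000 to 20000 hold 2. The NLS rate is the higher one at each of the 111 positions that NLS also lists.

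A list drawn up for RNAs held in the nucleus, 14 symbols without XIST, had 11 members among 146 ERM sites in 7 genes (7.53%). Of the 11, 6 were listed with NLS. The values of GAS5 below go against the name of the list. MALAT1, an abundant nuclear noncoding RNA, had a single ERM site (7.19% and 5.11%), which was a member, where NLS listed 274 sites and NES none. GAS5, a noncoding RNA that hosts small nucleolar RNAs, held 63 of the 146 sites and 4 members, and its sites were about as many with NES (118) as with NLS (125). In K562 its mean rate was higher with NES (11.9% and 12.4%) than with NLS (4.78% and 4.47%; log2 difference 1.39 ± 0.05, limma adjusted p = 1.58e-05). In all, 5 of the 6 list genes tested in K562 were higher with NES and 1 lower, where 79.4% of all 6523 genes were higher. The median difference of the 6 was 0.63, which is -0.09 from the median of all genes. TUG1 had 3 members among 20 ERM sites, all 3 also listed with NLS. All 3 members of RN7SK, the small nuclear RNA that holds back a transcription elongation factor, were listed with NLS. RN7SK was named after its values were seen. Its members had ERM rates of 3.00% and 7.33%, 6.54% and 4.49%, and 8.88% and 7.85%. Genes with no NES site at all were rare: 64 genes, 55 of them with 1 member, and 24 of the 64 had NLS sites.

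Of the 85 ERM sites on mitochondrial RNAs 81 (95.3%) were members, but at low rates. RNR2, the large ribosomal RNA, and ND4, a subunit of respiratory complex I, held 14 members each, and the cytochrome oxidase subunits COX1 and COX2 held 9 each. The mean rate of the members was 0.337% ± 0.00079 for RNR2 and 0.482% ± 0.00612 for ND4 (SD, n = 2). The median over all mitochondrial members was 0.217%, far below the 7.84% of all members. An ND2 site was highest, with 14.5% and 17.3% (adjusted p 0.00365 and 0.00238). There were 58 mitochondrial sites with NES and 15 with NLS, so mitochondrial sites were called with every construct but mostly at different positions: 4 ERM sites were shared with NES and 1 member was listed with NLS. At least 1 single NES cell listed 78 of the 81 positions at any rate above 0, and 2 of the 81 at a rate of 5% or more. The single-cell tables carry no p-value, and whether background error moves with these listings was not tested.

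At the other end stood 206 members with an adjusted p under 1e-20 in both ERM libraries, a class set after the values were seen. They lay in 112 genes, and 80 of them lay in 41 ribosomal protein genes. EEF2, the elongation factor that moves the ribosome along, held 12, the chaperone HSP90AA1 and its co-chaperone STIP1 held 6 each, and the chaperone HSPA8, RPL4 and NPM1 held 5 each. None lay in a gene of the ER, secreted or membrane lists, which held 10992 of all 371699 ERM sites. The list of cytosolic proteins (translation factors, glycolysis, cytoskeleton and chaperones) held 50, and 10137 of all ERM sites. Shared sites of the same call strength were not counted by gene group. Whether these counts are particular to members was therefore not tested.

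These positions were listed in most other tables: 201 with NLS, 186 with NES in K562, 197 with NES in rRNA-depleted HEK293T RNA and 182 in all 5 other bulk tables used here. All 10 single NES cells listed 151 of them, and 195 had a NES site within 10 bases on the same strand. Shared sites of the same call strength were listed about as often or more often: 97.6% of these members against 99.6% of the shared sites with NLS, 90.3% against 97.5% with NES in K562, and 95.6% against 94.3% with NES in rRNA-depleted RNA. A NES site within 10 bases stood by 94.7% of them and 94.6% of the shared sites. In HEK293T poly(A) RNA those shared sites had mean rates of 14.4% and 14.2% with ERM and 9.88% and 10.2% with NLS. The mean rate of these members was 11.2% and 10.9% with ERM and 8.56% and 8.76% with NLS in HEK293T poly(A) RNA. With NES in K562 it was 25.4% and 25.7%, and all 186 were above their ERM rate. A site in EIF3L, a subunit of an initiation factor, had 54.8% and 56.4% with ERM and 25.5% and 25.7% with NLS. With K562 the same site had 74.4% and 75.0% with NES and 26.9% and 22.9% with NLS. In SRP9, part of the signal recognition particle that brings ribosomes to the ER, a site had 50.3% and 45.2% with ERM, 54.8% and 57.8% with NES in rRNA-depleted RNA, and between 13.8% and 97.4% in the 10 single NES cells. The top EEF2 site (chr19:3976371) had 8.80% and 9.75% with ERM, 20.3% and 27.5% with NES in rRNA-depleted RNA and 20% and 21.9% with NES in K562.

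The authors' NES p-values at shared sites of similar ERM call strength are given beside this class. Among shared sites with an ERM adjusted p whose −log10 lay between 150 and 200, 68.7% had a NES adjusted p listed as 0 in both libraries, and the share was 0.0508% between 20 and 50. The smallest value above 0 in the NES table was 2.52e-308, next to the smallest number that standard double precision holds in full (2.23e-308). The ERM and NLS tables of the same RNA came as near to it, with 3.1e-308 and 3.47e-308. Whether p-values at that limit dropped sites from the NES table was not tested.

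The remaining 14650 members were spread thinly over 5681 genes. Counting all members, 5732 of 9135 genes with ERM sites had at least 1, of which 2380 had 1, 1327 had 2 and 115 had 10 or more. The 10 leading genes held 2.03% of members. After XIST came PAICS, an enzyme of purine synthesis, with 27 members among 214 ERM sites, and TMED10, a cargo receptor between the ER and the Golgi, with 23 among 185. Next were AMOT, a scaffold of cell junctions (20), UBE2K, a ubiquitin-conjugating enzyme (20), and PIK3C2A (a lipid kinase), DFFA (inhibitor of an apoptotic nuclease) and PM20D2 with 19 each. NUP155, a nuclear pore protein, and CDK6, a cell cycle kinase, had 17 each. In each of these genes other than XIST the NES table listed more sites than the ERM table, for example 319 in PAICS, 304 in TMED10 and 93 against 35 in CDK6. None of them had a member with adjusted p under 1e-20 except XIST, which had 1.

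Within a gene, members and shared sites had ERM rates of the same order. TMED10 members had a mean ERM rate of 5.91% and 5.81%, and its shared sites 7.57% and 7.48%. They lay between 71 and 2742 bases from the end of the gene, and 2 of the 23 were listed with NLS and 8 with NES in K562. PAICS members had 7.32% and 7.20%, above its shared sites (4.04% and 3.71%). CDK6 members had 18.9% and 14.5%, near its shared sites (18.3% and 13.5%), and 16 of the 17 were listed with NES in K562. By share, among genes with at least 20 ERM sites and 10 members, GPD1L, related to glycerol phosphate dehydrogenase, led with 63.6% (14 of 22 ERM sites) after XIST, followed by the mismatch repair gene PMS1 (57.1%), ZYG11B, an adaptor of a ubiquitin ligase (50%), CDK6 (48.6%), the peptidase gene NLN (41.4%), and RALGPS2 and DENND11 with 37% each. All have few ERM sites, from 21 in PMS1 to 35 in CDK6.

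The members with the highest rates stood alone. A site in TOMM40, the pore of the mitochondrial outer membrane, had 91.7% and 68.8% with ERM, one in the retinol dehydrogenase gene RDH13 71.7% and 81.5%, and one in STIM2, a calcium sensor of the ER, 68.8% and 72.7%. The POLR1B site had 58.5% and 81.0%, the CASP10 site 70.5% and 64.5% and the PWWP3A site 58.8% and 75%. None of the 5 other bulk tables used here and no single cell listed any of these 6, and their larger adjusted p ranged from 0.00245 (CASP10) to 0.0497 (RDH13). Among the highest members that NLS listed too, the DDA1 site had 76.9% and 45.5% with ERM and 74.5% and 73.6% with NLS. CD320, a receptor for vitamin B12 uptake, had 61.1% and 60% with ERM against 60% and 50% with NLS. Sites in TSPAN31, ALMS1 and HNRNPL had mean ERM rates between 57.7% and 58.9%. None of these 5 sites passed the test of ERM against NLS (limma, adjusted p from 0.202 to 0.556), and the HNRNPL site, in an mRNA for a splicing factor, was also one of the 206 strongest (58.9% and 56.6% with ERM, 72.2% and 68.3% with NLS).

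Genes of ER, secreted or membrane proteins were counted by 4 short lists, chosen with earlier results of these data known. The lists hold 134 of the 9135 genes with ERM sites (1.47%) and 102 of the 5732 genes with members (1.78%). They cover a small part of such genes, so these shares can be compared with each other but do not give the share of all member genes that code such proteins. The share was 2.52% among genes with 3 or more members and 3.59% with 5 or more, but listed genes also had more ERM sites, a median of 60 per gene against 19, so that counting sites reversed the order. Of 10992 ERM sites in listed genes, 363 were members (3.30%), against 4.07% of sites in other genes. A wider definition by families of gene symbols, added after the data were seen, gave 6.19% of genes with members against 5.86% of all. By that definition 6.26% of the sites were members against 3.96% elsewhere, and these genes had a median of 10 ERM sites against 20. The direction therefore differed between the definitions.

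Within the lists, the median share of a gene's ERM sites that were members was compared with 2.96% over all 5975 genes with at least 10 ERM sites. It was 2.45% for ER chaperones, translocon and glycosylation (47 genes), 1.64% for secreted and matrix proteins (19), 3.28% for plasma membrane receptors and transporters (28) and 2.47% for ER lipid and sterol enzymes (20). Cytosolic proteins had 0.901% (47 genes) and mRNAs with sites of the cell's own ADAR deaminases 3.23% (17). TMED10 (12.4%) and SSR1, a part of the translocon (12.3%, 7 members), stood at the top of the first list, where the chaperone CANX had 8 members among 614 ERM sites (1.30%). SPARC, a matrix glycoprotein, had 7 of 32 (21.9%) and LAMC1, a laminin chain, 9 of 124. The amino acid transporter SLC7A5 had 13 of 123 (10.6%) and the integrin subunit ITGB1 13 of 179 (7.26%). SCD, the stearoyl-CoA desaturase of the ER, had 13 of 310 (4.19%) and SOAT1, which esterifies cholesterol, 7 of 45 (15.6%). Of the 125 members in cytosolic genes 50 had an adjusted p under 1e-20, and of the 363 in the 4 lists none had. The same counts over shared sites were not taken.

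**Figure D4:**
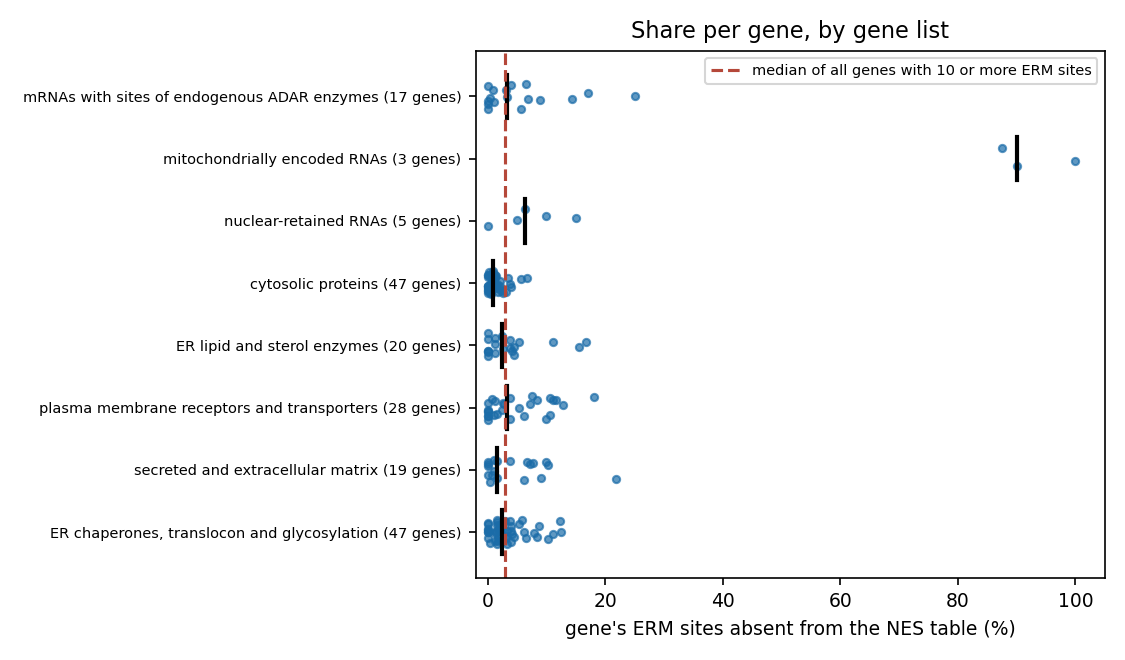
Each point is a gene with at least 10 ERM sites, at the percentage of its ERM sites absent from the NES table; black bars are list medians and the dashed line is the median of all such genes (2.96%). The cytosolic genes lie lowest (median 0.901%), the 4 lists of ER, secreted and membrane proteins lie between 1.64% and 3.28%, and 3 mitochondrially encoded RNAs lie at 87.5% or more.

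The members of highest rate in the 4 lists were mostly in mRNAs for matrix and membrane proteins. The LAMA5 site (a laminin chain) had 40.9% and 62.5% with ERM, 47.4% and 78.6% with NES in K562 and 26.3% and 48.3% with NES in rRNA-depleted RNA. The SLC12A2 site (an ion cotransporter) had 36% and 45.7% with ERM and 53.8% and 53.6% with NES in K562. A site in EDEM1, which sorts misfolded glycoproteins for degradation, had 30% and 24.3% with ERM, 37% and 47.6% with NLS and 54.5% and 47.3% with NES in K562. The ITGB1 site had 33.3% and 25% with ERM but 7.29% and 3.80% with NES in K562. TIMP2 (23.1% in both libraries) and NID2 (25.7% and 20%) were in none of the 5 other bulk tables. Of these 6 positions 4 were also called with NES in K562, where 52.4% of all members and 89.5% of shared sites were.

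The rates of members were then set against NLS with limma on log2(rate + 0.01), a scale that understates changes of low rates. The first of these contrasts involves the ERM libraries of the rule, so its counts are a description. Of 4258 members listed in both tables, 149 (3.50%) were higher with ERM at an adjusted p under 0.05, where 9.96% of all 276293 sites were, and 625 (14.7%) were lower, where 13.1% of all were. The median difference was -0.17 over members and -0.04 over all sites. XIST gave 104 of the 625 (0 higher, median -2.72 over 111 sites), while the members with adjusted p under 1e-20 went the other way, with 52 higher and 13 lower of 201 (10 to 24 higher and 4 to 6 lower without 1 library). Relative to the median of all sites, 170 members (3.99%) were higher, against 10.9% of all sites, and 579 (13.6%) lower, against 12%. Without XIST, mitochondrial sites and those strongest members, 97 were higher and 508 lower of 3946, a share of 12.9% lower. Leaving out 1 library cut the number called. More members were lower than higher each time, and the same held over all sites. The median difference in those fits lay between -0.20 and -0.13 over members and between -0.06 and -0.02 over all sites.

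K562 offered libraries that the rule did not use. Of 3065 members listed with both NES and NLS there, 919 (30.0%) were higher with NES, where 40.9% of all 423471 sites were, and 230 (7.5%) were lower, where 5.98% were. The median difference over all sites was 0.53, so the counts were also taken relative to that median. Then 382 members (12.5%) were higher, against 19.6% of all sites, and 617 (20.1%) lower, against 16.9%. The strongest members differed from the others: 173 of 186 were higher with NES and 0 lower (137 and 2 relative to the median). The other members gave 746 higher and 230 lower of 2879. Shared sites of the same call strength also had higher mean rates with NES than with NLS in K562. They had 28.7% and 28.8% with NES and 10.45% and 10.43% with NLS. The strongest members had 25.4% and 25.7% with NES and 8.27% and 8.16% with NLS. The EIF3D site had 76.0% and 73.0% with NES and 18.9% and 19% with NLS (log2 difference 1.92 ± 0.15, adjusted p = 0.00141, at most 0.0107 without 1 library). The TPT1 site had 61.3% and 59.8% against 16% and 17.7% (1.79 ± 0.17, adjusted p = 0.00141), and the SVIP site 47.4% and 43.3% against 13.3% and 16.1% (1.56 ± 0.19, adjusted p = 0.00196). The number of members called fell from 1149 to 635 without NES replicate 1 and 642 without NES replicate 2.

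In rRNA-depleted HEK293T RNA more members were lower than higher with NES. Of 1237 members listed with NES and NLS, 28 (2.26%) were higher with NES and 107 (8.65%) lower, against 3.78% and 5.49% of all 201162 sites. Relative to the median of all sites, 29 were higher and 103 lower, against 4.16% and 4.99% of all. XIST gave 16 of the 107 from 18 sites, with a median of -3.63, and 14 to 16 of them passed without any 1 library. The members with adjusted p under 1e-20 had 21 higher and 3 lower of 197, but 0 and 1 without either NES library. The NES libraries differed in mean rate over members (18% in replicate 1, 22.2% in replicate 2). Leaving out 1 library cut the number of members called, most so when it was a NES library. Without either NES library all members called were lower with NES, as were nearly all sites called. Most of those members were XIST sites. The median difference was -0.06 over members and 0.14 over all sites without NES replicate 1. Without NES replicate 2 it was -0.45 and -0.19.

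For whole genes, the mean rate over the sites shared by NES and NLS in K562 was compared for genes with at least 3 members. Of 1604 such genes 1372 (85.5%) were higher with NES, against 79.4% of all 6523 genes, and 46 (2.87%) lower, against 5.49%. Counted from the median over all genes (0.72), 637 (39.7%) lay higher and 519 (32.4%) lay lower, against 36.1% and 36.2%. TMED10 had 23.2% and 23.5% with NES and 6.67% and 7.37% with NLS over 21 sites (1.73 ± 0.06 on the log2 scale, adjusted p = 1.76e-05). PAICS had 9.66% and 9.99% against 3.15% and 3.31% (1.61 ± 0.04, adjusted p = 7.93e-06). PIK3C2A, at 0.19 ± 0.10, did not pass (adjusted p = 0.112), though it did without 1 of the libraries (0.0305 at the lowest). MALAT1, with its single member, was far lower with NES, at 3.22% and 3.33% against 35.3% and 37.5% (-3.48 ± 0.05). Of the list genes with at least 3 members, 20 of 21 for ER chaperones and translocon, 9 of 9 for plasma membrane, 10 of 10 for ER lipid enzymes and 20 of 20 for cytosolic proteins were higher with NES and none lower. Their median differences were 1.08, 0.83, 0.64 and 1.34. Over all tested genes of the plasma membrane list, with or without members, 18 of 26 were higher and 5 lower, with a median of 0.45 (-0.27 from the median of all genes).

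Single cells with the cytoplasmic enzyme reached part of the members each. The share of members listed ran from 4.93% to 19.2% over the 10 cells (median 10.5%), against 16.3% to 48.0% of shared sites. The median rate at listed members was 2.36% in the lowest cell and 26.4% in the highest. These tables list any rate above 0 and give no depth, so a rate from few reads cannot be told apart from one from many.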

How the data were processed

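TadA-8e libraries of HEK293T and K562 cells were analysed from the authors' tables of called sites. Per the submitters' processing notes, cutadapt, STAR, Bowtie2 and SAMtools were used with hg38, with no versions given; the site caller is not given in the sources used here. Each deposited fraction is a site's changed reads over its reads in 1 library, and no counts are listed. Adjusted p-values are those the authors deposited, 1 per library, and every listed bulk site had less than 0.05 in both. Single-cell files hold a fraction per site and were averaged where a site was listed more than once. Tables of total RNA, tRNA and genomic DNA were not used here.

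Members were found by exact match of chromosome, position and strand. The members, gene lists and tests were chosen with earlier results of these data known. For tests, limma 3.58.1 (R 4.3.3) was fitted to log2(rate + 0.01) with a trend, two-sided, over every site in both tables (genes: log2 of the mean over at least 5 shared sites), with Benjamini-Hochberg adjustment and a threshold of 0.05. In simulated data with 20% of rows moved in 4 sizes, changes of 1 log2 were recovered for 79.9% of sites in ERM against NLS, 82.8% in K562, 55.4% in rRNA-depleted RNA and 100% of genes, with 3.94% to 4.14% of calls false. With 200 rows moved, 6, 4 and 14% of sites were recovered at 1 log2, and 98, 92 and 92% at 2 log2. The share of false calls was then 7.27, 10.1 and 3.74% for sites and 5.8% for genes. Intervals are exact binomial at 95% and cover counting error only, as do limits from a count of 0 (3 counts of the total). Named genes were the 10 with most members, the 8 with the largest share (at least 20 ERM sites and 10 members) and at most 4 per list; named sites were the 6 of highest ERM rate among all members, with NLS and in the ER, secreted and membrane lists. 1 site that this rule names is not reported here. The TPT1, EIF3L, SRP9, EIF3D, XIST, ND2 and EEF2 sites were named as the highest of classes set after the data were seen, and the sequence windows by highest rate. Sequences and gene intervals are RefSeq's (GRCh38.p14); 5612 of 5732 genes with members matched an interval. A planned definition of membrane proteins by hydropathy needed protein sequences that were not used here. Python 3.11.15, pandas 2.3.3, numpy 2.4.6, scipy 1.17.1 and matplotlib 3.10.9 were used.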

Additional observations from a re-analysis of the deposited data

Results flagged for a closer look

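Single NES cell 3 listed 81.5% of the 206 members with adjusted p under 1e-20, while the other 9 cells listed from 91.3% to 95.6%. The gap to the next cell was large for a group of 10 by Dixon's criterion, which chance exceeds in about 1 in 20 groups. Cell 3 also listed the fewest sites, 146445 against 276678 to 551317 in the others, and the fewest members (4.93%). Depth per cell is unknown, and its part in the share was not tested.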

How the results depend on the processing

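Matching positions without strand gave the same 15056 members, of which 28.3% were listed with NLS. Asking for an adjusted p under 0.001 in both ERM libraries left 1063 members, 48.9% of them with NLS, at a mean ERM rate of 12%. Members with no NES site within 10 bases numbered 7101 (29.2% with NLS, mean rate 13.3%), and members in genes with at least 10 NES sites had a mean rate of 9.52%. Without XIST, mitochondrial sites and adjusted p under 1e-20, added after seeing the data, 26.9% were listed with NLS. The share of genes coding ER, secreted or membrane proteins was 1.78%, and 2.52% or 3.59% over genes with at least 3 or 5 members, and 6.19% by symbol families. The hydropathy thresholds were not run. Leaving out 1 library gave mean rates from 9.98 to 10.2%, 281 to 431 members called for ERM against NLS, 635 to 1117 for K562 sites, 19 to 54 in rRNA-depleted RNA and 1324 to 1429 K562 genes. In those fits the lone library of a group is assumed to vary like the other group. Pseudocounts, the filter on low rates, the trend, the mean or median of a gene and centring kept each total called within 1.5 times. Centring moved the K562 splits, from 919 higher and 230 lower to 382 and 617 for sites and from 1372 and 46 to 637 and 519 for genes. A replicate block called 780, 1202, 200 and 1410 members or genes. Replicate numbers are not said to pair libraries, and the correlation of their deviations lay between -0.0066 and 0.018. The unknown depth limits every statement on absence.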
